A study of Mus musculus with 16 samples.

Results

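Oxidative phosphorylation was examined here through the nuclear genes that encode its subunits in mouse flexor tendon. Members were taken by symbol, as genes beginning with Nduf followed by a, b, c, s or v, the 4 Sdh subunit genes, genes beginning with Uqcr, genes beginning with Cox4 to Cox8, and genes beginning with Atp5, with a mean of at least 10 counts over all 16 libraries. Of 49568 gene symbols in the count table, 100 matched the names and 91 passed the minimum. The member closest to the minimum was Cox6b2 with a mean of 18.6 counts, and the matching symbol closest below it was Uqcrh-ps2 with 1.38. The members comprised 29 accessory and 7 core subunits of complex I, 8 complex I assembly factors, 4 genes of complex II, 8 of complex III, 18 of complex IV and 15 of ATP synthase (complex V), and the remaining 2, Atp5s and Atp5sl, carry the name without encoding a subunit of the synthase. They lie on 19 chromosomes.

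The respiratory chain passes electrons from NADH (complex I) and succinate (complex II) through ubiquinol and cytochrome c (complexes III and IV) to oxygen, and ATP synthase uses the resulting proton gradient to make ATP. Most subunits are encoded in the nucleus and imported, while a small core is made inside the organelle from mitochondrial DNA, so that complexes I, III, IV and V are assembled from both genomes. Several complex IV subunits exist as isoforms, among them the heart and skeletal muscle forms Cox6a2, Cox7a1 and Cox8b. Tendon cells carry fewer mitochondria than muscle fibers, which lie close to tendons and are among the richest in them.

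The libraries came from single flexor tendons of C57BL/6J (C57) and MRL/MpJ (MRL) young adult male mice, 2 inbred strains of which MRL heals several tissues with less scar. Tendons were taken uninjured or at 7 days post injury (dpi), after part of the deep digital flexor tendon of the third digit of the hind paw had been cut, and there were 4 libraries in each of the 4 groups. Neighboring sheath and peritendinous tissue was collected with the tendon, so a library may hold other cell types. Library totals ranged from 12552424 to 23741648 counts (median 15520024.5). All injured MRL libraries were deeper (18524170 to 23741648 counts) than every other library (at most 17832908). The part of this depth in comparisons with injured MRL tendons was not tested. Levels are given as CPM, read counts relative to the library total after edgeR's trimmed-mean scaling. CPM values were not divided by gene length, so they are compared between libraries and not between genes.

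Several libraries stood apart from the rest. The C57 injured library named BI-181 (replicate 1) had 5.80% of its counts in 12 skeletal muscle markers, compared with 0.190% in BI-183 (C57 injured replicate 2) and at most 0.00176% in the remaining libraries. The library labelled C57 uninjured replicate 4 had 7.45% of its counts in epidermal markers, against at most 0.0779% elsewhere. This library and the one labelled MRL uninjured replicate 4 also went against their strain labels. In the former, 1 of 7 genes counted only in injured C57 tendons exceeded 2 CPM and 5 of 6 genes counted only in injured MRL tendons exceeded 0.5 CPM, whereas in the latter 7 of 7 and 0 of 6 did. Both were kept in their labelled groups, and results that rest on them are given with and without them.

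The strain difference was visible in a mitochondrial gene, for which the sequences of a short stretch are shown because a single base separates the gene from its nuclear copy. mt-Nd3 (chrM:9459-9806, plus strand) encodes a core subunit of complex I, and Gm28438 (chr1:24612775-24613119, minus strand) is an unprocessed pseudogene derived from mitochondrial DNA. Over 345 aligned bases of the GRCm38 sequence they differ by 1 substitution, T3C, with positions counted from the first base of mt-Nd3. The first bases of each, 5′ to 3′ with the differing base in capitals, read as follows.
mt-Nd3: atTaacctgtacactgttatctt
Gm28438: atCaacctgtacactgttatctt

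mt-Nd3 had 45, 53, 41 and 0 counts in the uninjured and 102, 48, 79 and 56 in the injured C57 libraries, and 0, 0, 0 and 31 in the uninjured MRL libraries, with 0 in all injured MRL libraries. Gm28438 had 0, 0, 0 and 80 counts in the C57 uninjured, 0, 0, 0 and 1 in the C57 injured, 77, 83, 81 and 0 in the MRL uninjured and 137, 127, 98 and 188 in the MRL injured libraries. Reads were thus assigned to the gene or to its copy in a strain-specific manner, except that the libraries labelled uninjured replicate 4 showed the pattern of the opposite strain.

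**Figure D1:**
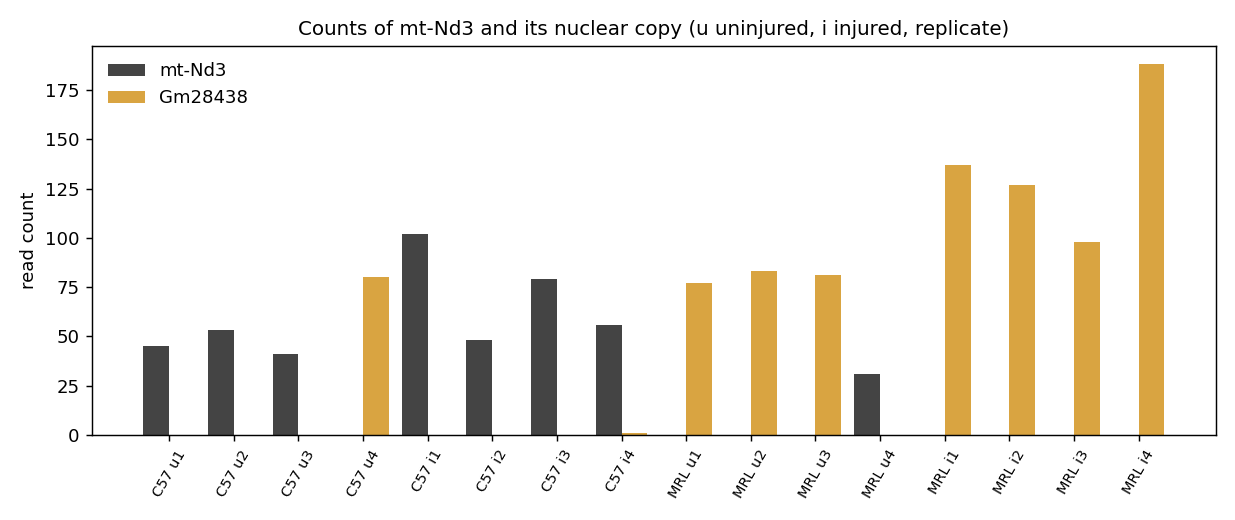
Read counts of mt-Nd3 (dark bars) and of its nuclear copy Gm28438 (yellow bars) in each library, with C57 and MRL uninjured (u) and injured (i) replicates along the horizontal axis. The bars exchange places in C57 u4 (0 and 80) and MRL u4 (31 and 0) relative to the other uninjured libraries of the same label.

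Of the 13 mitochondrially encoded protein genes, only 8 had a mean of at least 10 counts. mt-Co2, mt-Co3, mt-Atp8 and mt-Nd4l were at 0 in every library and mt-Atp6 had 1 count in a single library. For mt-Co2, mt-Co3, mt-Atp6, mt-Nd4l and mt-Nd3, between 97.6% and 99.9% of all 100-base stretches also occur in annotated nuclear copies. With reads of 100 nt their counts thus say little about the level of the transcripts. mt-Atp8 shared 0% and was still at 0, for a reason that was not tested. The share was 60.8% for mt-Nd4 and 30.8% for mt-Co1, whose counts carry this limit in part. Levels of mitochondrial transcripts are therefore given below for 7 genes (mt-Nd1, mt-Nd2, mt-Nd4, mt-Nd5, mt-Nd6, mt-Co1 and mt-Cytb). Among the nuclear members, 32 shared at least 1 such stretch with another gene, but Atp5l (69%) was the only member that shared most of its sequence.

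The nuclear members together took 0.985% to 1.16% of counts in uninjured C57 and 0.928% to 1.12% in uninjured MRL tendons. In injured C57 tendons they took 1.05% to 1.14% in 3 libraries and 2.49% in BI-181. In injured MRL tendons they took 1.14% to 1.29% in 3 libraries and 1.91% in replicate 4, the library named BI-275. Leaving out 6 tissue-restricted isoforms, the mean log2 CPM of 85 members was 6.27, 6.26, 6.39 and 6.69 in uninjured C57, 7.50 (BI-181), 6.42, 6.36 and 6.25 in injured C57, 6.27, 6.50, 6.24 and 6.22 in uninjured MRL, and 6.50, 6.73, 6.56 and 7.32 (BI-275) in injured MRL libraries. BI-181 and BI-275 were thus the highest libraries of the series. Without BI-181 the injured C57 values (6.25 to 6.42) overlapped the lower uninjured C57 values (6.26 to 6.39 in replicates 1 to 3), while the lowest injured MRL library equaled the highest uninjured MRL library to 2 decimals.

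The 7 mitochondrial transcripts did not follow the same order. Their mean log2 CPM was 9.07, 8.93, 8.66 and 9.26 in uninjured C57, 10.72 (BI-181), 9.12, 9.26 and 9.06 in injured C57, 8.80, 8.93, 8.98 and 9.01 in uninjured MRL, and 8.88, 9.10, 8.70 and 9.64 (BI-275) in injured MRL libraries. The nuclear mean minus the mitochondrial mean was -2.53, -2.43, -2.73 and -2.80 in uninjured MRL and -2.38, -2.36, -2.14 and -2.31 in injured MRL libraries, which did not overlap. In C57 the difference was -2.79, -2.67, -2.27 and -2.58 without injury and -3.22 (BI-181), -2.70, -2.90 and -2.81 with it, so that the groups overlapped and the injured libraries lay at the lower end. These are descriptions of a mean over the genes, for which no test was made.

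**Figure D2:**
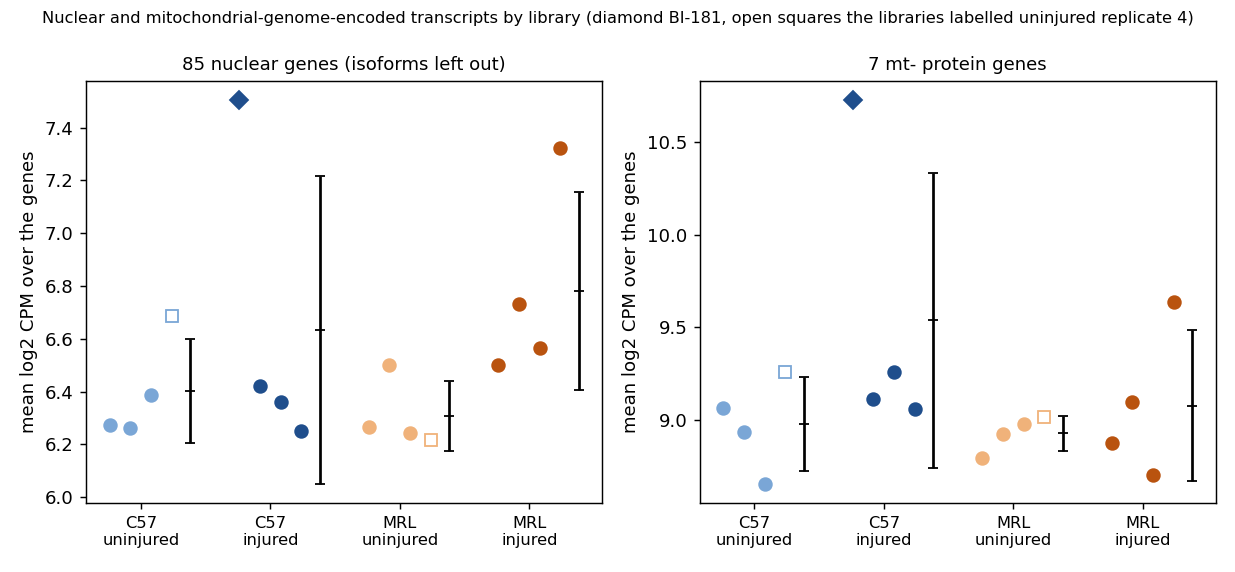
Mean log2 CPM per library of 85 nuclear members without the tissue-restricted isoforms (left) and of 7 mitochondrially encoded genes (right), by strain and injury. Each point is 1 library, the diamond is BI-181, open squares are the libraries labelled uninjured replicate 4, and black bars give the mean ± SD of 4 libraries. BI-181 lies at 7.50 and 10.72, and the highest injured MRL library at 7.32 and 9.64.

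Some members with high CPM showed how the groups varied. Ndufb9, an accessory subunit of complex I, was at 207 ± 17.0 CPM in uninjured C57 and 180 ± 23.8 CPM in uninjured MRL tendons (SD, n = 4), and at 282 ± 218 and 217 ± 60.2 CPM after injury. Uqcrc1, a core protein of complex III, was at 263 ± 63.0 and 201 ± 13.5 CPM before and 343 ± 196 and 240 ± 18.8 CPM after injury. The large SD of injured C57 tendons came from BI-181, since without it Ndufb9 was at 174 ± 7.49 CPM (n = 3) and Uqcrc1 at 246 ± 36.7 CPM, both below their uninjured means. Cox4i1, the common isoform of complex IV subunit 4, was more even, at 384 ± 40.3 CPM in uninjured and 425 ± 144 CPM in injured C57 (354 ± 38.8 CPM without BI-181) and at 362 ± 62.0 and 423 ± 66.2 CPM in MRL tendons. Its log2 fold change with injury was 0.11 in C57 and 0.23 in MRL (edgeR adjusted p = 0.891 and 0.426).

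To ask whether these genes responded to injury in C57 tendons, injured and uninjured C57 libraries were compared with edgeR's quasi-likelihood test with Benjamini-Hochberg adjustment over all genes. None of 90 members tested was called at an adjusted p below 0.05, in a comparison that called 1.13% of all genes (163 of 14424). At an unadjusted p below 0.05 there were 3 members higher and 1 lower (7.95% of all genes were higher), and DESeq2 also called 0, against 6.48% of all genes. The median log2 fold change was 0.31, beside -0.05 over all genes, and 78 members lay above 0, compared with 46.4% of all genes. In these bulk samples, fewer cells of a type and less RNA per cell cannot be told apart. Of 12 skeletal muscle markers 5 could be tested, and all 5 were higher at an unadjusted p below 0.05 with none called. Only BI-181 (5.80% of counts) and BI-183 (0.190%) were high in them. The other injured C57 libraries (0.000873% and 0.000924%) lay within the uninjured range (0.000370% to 0.00176%). Macrophage markers took 0.0735% to 0.198% of counts in uninjured and 0.511% to 1.02% in injured C57 libraries, with 6 of 10 called higher, and 8 markers of cycling cells had a median of 1.71 with none called. Cycling markers were already at 0.0200% of counts in the library labelled C57 uninjured replicate 4, and with it and BI-181 left out their median was 5.08 with 7 of 8 called. The 6 endothelial markers took 0.00136% to 0.00918% of counts in uninjured and 0.00983% to 0.0168% in injured C57 libraries (median 1.73, none called). Erythroid markers were also apart, at 0.00313% to 0.00673% and 0.00799% to 0.0553%. Tenocyte markers overlapped, at 1.44% to 3.00% and 1.81% to 3.85%. Their part in the values of the members was not tested.

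The median of the members in C57 changed sign when BI-181 was left out, though not every group of genes did. The median of the members was then -0.10, beside -0.05 over all genes, 27 of 90 lay above 0 (all genes 46.2%) and none was called (background 0.626%, 93 of 14849). By complex, the median with all libraries and without BI-181 was 0.38 and -0.14 for the core of complex I, 0.19 and -0.15 for its accessory subunits, 0.51 and 0.11 for complex II, 0.28 and -0.12 for complex III, 0.26 and -0.02 for complex IV, and 0.42 and -0.10 for ATP synthase. With C57 uninjured replicate 4 also left out, the medians were 0.035, -0.018, 0.055, 0.097, 0.20 and 0.090 in the same order, so the sign for most complexes, and their order, depended on these libraries. The 7 mitochondrially encoded genes went from a median of 0.77 to 0.16 (none called either way), enzymes of the tricarboxylic acid cycle from 0.52 to 0.15, and glycolytic enzymes from 0.46 to -0.01. With C57 uninjured replicate 4 also left out these lists had medians of 0.30, 0.068 and 0.36. Of their genes, mt-Co1 (0.60 ± 0.14, edgeR adjusted p = 0.0339) and Idh3a (0.48 ± 0.12, edgeR adjusted p = 0.0463) were called, where 8.55% of all genes were (1241 of 14515).

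Sdhd, a membrane anchor of succinate dehydrogenase, was the only member with all injured C57 libraries above all uninjured ones, where 7.51% of all genes did so. Its level was 146, 160, 129 and 122 CPM in uninjured and 295 (BI-181), 194, 179 and 160 CPM in injured C57 tendons, a log2 fold change of 0.54 ± 0.23 (SE, n = 4 per group, edgeR adjusted p = 0.314) and 0.34 ± 0.16 without BI-181 (edgeR adjusted p = 0.450). Ndufa4l2 was the only member with all injured libraries below all uninjured ones (4.19% of all genes), and is taken up with the isoforms. Neither passed the test.

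Removing BI-181 together with the library labelled C57 uninjured replicate 4 left 1 member called, in a comparison that called 8.55% of all genes (1241 of 14515). Ndufs4, an accessory subunit of complex I whose loss causes Leigh syndrome, had 36.7, 37.5, 36 and 65.6 CPM in uninjured and 184 (BI-181), 65.7, 59.5 and 49.8 CPM in injured C57 tendons. The 3 injured libraries other than BI-181 lay above uninjured replicates 1 to 3, and uninjured replicate 4 lay between them. The log2 fold change was 1.00 ± 0.45 over all libraries (edgeR adjusted p = 0.333) and 0.67 ± 0.16 with both libraries left out (edgeR adjusted p = 0.0356). The median of the members under this setting was 0.04, and 54 of 90 lay above 0 (all genes 50.5%). With C57 uninjured replicate 4 alone left out, the median was 0.42 and none was called (background 6.26%).

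In MRL tendons, 9 of 89 members tested rose with injury and none fell (3.36% of all genes fell). These 9 were 10.1% of the members, against 11.1% of all genes called in either direction (1584 of 14274) and 7.73% called higher, so the share called lay near the background with this filter and tool. The members differed from all genes more in their common direction. Their median log2 fold change was 0.56, beside -0.03 over all genes, and 81 of 89 (91%) lay above 0, compared with 48.1% of all genes. Other genes with short transcripts shared part of this direction. The 550 others under 1000 nt had a median of 0.46 with 78% above 0. At an unadjusted p below 0.05, 52 members (58.4%) were higher and 1 was lower, against 16.3% of all genes higher. In 28 members all injured libraries lay above all uninjured ones, where 13.5% of all genes did so, and in 1 (Sdha) all lay below (9.44%).

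The called genes encode subunits of complexes I to IV. Of complex I they include Ndufs8, a core subunit that holds iron-sulfur clusters, and the accessory subunits Ndufa1, Ndufa3, Ndufb6 and Ndufb8. Ndufs8 (chr19:3908863-3912774) had 65.5, 80.9, 84.2 and 54.1 CPM in uninjured and 103, 111, 96.7 and 171 CPM in injured MRL tendons, a log2 fold change of 0.77 ± 0.22 (edgeR adjusted p = 0.0497). Ndufa3 (chr7:3617373-3620327) had 42.8, 45.5, 36.3 and 42.4 CPM and then 57.9, 90.0, 64.5 and 175 CPM, with a log2 fold change of 1.22 ± 0.32 (edgeR adjusted p = 0.0358). The injured libraries of both genes lay above every uninjured one, with the highest value in BI-275.

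Ndufa1 (chrX:37187588-37191163) rose by a log2 fold change of 0.96 ± 0.23, from 88.3, 121, 98.5 and 92.7 CPM to 132, 195, 163 and 284 CPM (edgeR adjusted p = 0.0269). Ndufb6 (chr4:40270591-40279421) rose by 0.90 ± 0.24, from 45.8, 47.3, 47.4 and 43.5 CPM to 65.4, 76.7, 65.1 and 135 CPM (edgeR adjusted p = 0.0368). Ndufb8 (chr19:44548572-44555440) rose by 0.65 ± 0.17, from 82.5, 99.0, 89.3 and 81.1 CPM to 118, 127, 127 and 179 CPM (edgeR adjusted p = 0.0336). In all 3 the injured libraries lay above every uninjured one. All 29 accessory subunits of complex I lay above 0 (median 0.57), whereas its 7 core subunits had a median of 0.18 with 6 above 0, and its 8 assembly factors had a median of 0.20 with 7 above 0.

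In complex II, the enzyme that belongs to both the respiratory chain and the tricarboxylic acid cycle, the subunits had fold changes of opposite sign. Sdhd (chr9:50596357-50603812) rose from 135, 122, 140 and 117 CPM to 189, 196, 180 and 275 CPM, a log2 fold change of 0.72 ± 0.17 (edgeR adjusted p = 0.0229). Sdha (chr13:74322254-74350280), the catalytic flavoprotein, had 230, 228, 220 and 270 CPM in uninjured and 179, 180, 185 and 181 CPM in injured MRL tendons, a log2 fold change of -0.38 ± 0.13 (edgeR adjusted p = 0.0812). The injured values of Sdha were all below the uninjured ones and spanned a narrow range, and DESeq2 called it lower (-0.38, DESeq2 adjusted p = 0.0231). The iron-sulfur subunit Sdhb had a log2 fold change of 0.45 with its groups apart (edgeR adjusted p = 0.134).

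In complex III, Uqcrq (chr11:53427922-53430831), a small subunit of the cytochrome bc1 complex, rose from 87.5, 123, 92.8 and 103 CPM to 151, 212, 154 and 371 CPM, a log2 fold change of 1.14 ± 0.28 (edgeR adjusted p = 0.0296). All 8 members of complex III lay above 0, with a median of 0.69. In complex IV, Cox5a (chr9:57521274-57532426), a subunit on the matrix side of the enzyme, rose from 31.5, 40.7, 34.7 and 45.0 CPM to 65.4, 75.7, 61.7 and 156 CPM, a log2 fold change of 1.25 ± 0.30 (edgeR adjusted p = 0.0253). Cox6b1 (chr7:30616861-30626151), which faces the intermembrane space, rose from 197, 249, 202 and 169 CPM to 271, 358, 296 and 642 CPM, by 0.95 ± 0.27 (edgeR adjusted p = 0.0479). Cox5a had the largest fold change of the called members, and 13.6% of its 100-base stretches are shared with Gm26631. Complex IV as a whole had a median of 0.70, with 13 of 16 tested members above 0.

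No gene of ATP synthase passed the threshold, although all 15 lay above 0 (median 0.65) and 13 had an unadjusted p below 0.05. Atp5b, the catalytic beta subunit, had 733, 806, 760 and 724 CPM in uninjured and 1013, 1068, 898 and 1119 CPM in injured MRL tendons, a log2 fold change of 0.45 (edgeR adjusted p = 0.0679). Atp5a1, the alpha subunit, had 448, 437, 442 and 432 CPM and then 499, 526, 530 and 662 CPM, a log2 fold change of 0.34 (edgeR adjusted p = 0.146). In both genes the groups did not overlap. The lowest fold change among the members belonged to Atp5s (-0.54), followed by Sdha and Atp5sl (-0.37).

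**Figure D3:**
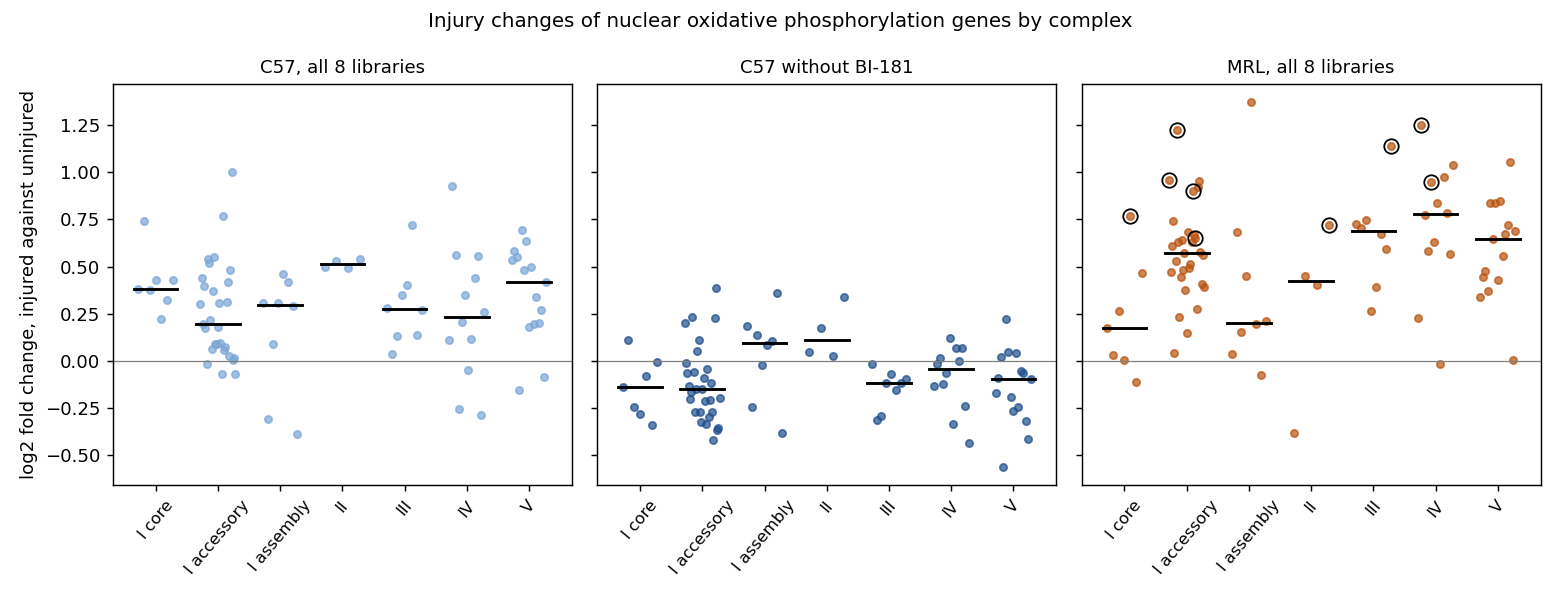
Log2 fold change of each member (points) between injured and uninjured tendons by complex, in C57 with all libraries (left), C57 without BI-181 (middle) and MRL (right), with black lines at the median, the tissue-restricted isoforms and Atp5s and Atp5sl left out, and members with an adjusted p below 0.05 ringed. The 9 ringed members are all in the MRL panel, and the C57 medians of complex I core, complex I accessory subunits and complexes III, IV and V cross 0 when BI-181 is left out.

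The number of members called in MRL tendons depended on single libraries and on the tool. Leaving out BI-275 gave 11 called (8 of them shared with the 9 above, background 9.27%) and a median of 0.30, where the mitochondrial genes had a median of -0.01. The count was 0 without MRL uninjured replicate 1, 2 without replicate 2 and 1 without replicate 3. It was 2 without the library labelled replicate 4 (Cox5a and Sdhd, background 8.12%). It was 2 without injured replicate 2 and 17 without injured replicate 3. These comparisons called between 5.4% and 11.8% of all genes. DESeq2 called 28 higher and 1 lower of 89 (32.6%), where it called 19.3% of all genes. With no filter on low counts edgeR called 16 of 91 (17.6%) against 5.35% of all genes, and with at least 10 counts required in every library 17 of 88 (19.3%) against 14.1%, so that the share of members lay above the background under these settings. Without the library labelled MRL uninjured replicate 4, the other 7 of the 9 genes had log2 fold changes of 0.62 (Ndufb8) to 1.23 (Ndufa3), with their groups still apart and edgeR adjusted p between 0.0623 and 0.105. The median stayed above 0 under every one of these settings.

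The mitochondrially encoded genes were tested in the same fit of MRL injury, where 7 passed the filter, 6 lay above 0 and none was called, with a median of 0.23 and a range of -0.23 (mt-Nd2) to 0.44 (mt-Cytb). Among genes that work next to the complexes, 6 of 24 electron carriers and partners rose and 1 fell (median 0.26), beside the 7.73% of all genes that rose. Those that rose included Cycs, cytochrome c (1.31 ± 0.33, edgeR adjusted p = 0.0302), and Slc25a5, an ADP/ATP carrier (1.49 ± 0.25, edgeR adjusted p = 0.00565). In the tricarboxylic acid cycle 2 of 19 enzymes rose (median 0.33), namely Idh3a and the citrate synthase gene Cs, a share of 10.5% that lay near the background. In glycolysis 6 of 15 enzymes rose (median 0.62), among them Ldha and Pgk1. None of 14 fatty acid oxidation genes was called (median 0.06). Among 36 assembly factors with other names, Coa7 rose and Surf1 fell. None of 16 regulators of mitochondrial biogenesis was called (median -0.32), and the coactivator Ppargc1a had 4.31, 5.34, 2.33 and 2.25 CPM in uninjured and 0, 0.545, 0.529 and 0 CPM in injured MRL tendons (edgeR adjusted p = 0.0760). Its relative Ppargc1b and the factors Esrra, Nrf1, Gabpa and Tfam, which act on promoters of nuclear or mitochondrial respiratory genes, had log2 fold changes between -0.76 (Ppargc1b) and -0.18 (Tfam).

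Markers of other cells also moved with injury in MRL tendons. All 8 markers of cycling cells rose in MRL (median 5.76), from at most 0.00126% of counts in uninjured libraries to between 0.0197% and 0.0728% in injured ones. Of 10 macrophage markers 5 rose (median 1.12), from between 0.10% and 0.167% of counts in uninjured to between 0.364% and 0.734% in injured libraries. Of 3 skeletal muscle markers that could be tested, 1 (Tnni2) was called, while all 12 together were at most 0.00133% of counts in every MRL library. The part of cycling cells and macrophages in the change of the oxidative phosphorylation genes was not tested.

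Most members have short transcripts, so they were set beside other genes of like length, split at a length of 1000 nt for the longest coding transcript, a split chosen after the data were seen. The members ranged from 360 to 4715 nt (median 913), and all genes tested had a median of 3160 nt. Below 1000 nt, 48 members had a median log2 fold change of 0.63 with 46 above 0 and 5 called, and 550 other genes had a median of 0.46, with 78% above 0 and 18% called. At 1000 nt and above, 40 members had a median of 0.45 with 35 above 0 and 4 called, whereas 11751 other genes had a median of -0.04, with 47.7% above 0 and 11.9% called. In C57 without BI-181, short members and other short genes had medians of -0.15 and -0.08. The part of transcript length in the MRL values was not tested further.

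Whether injury changed the members differently in the strains was asked with the strain by injury interaction over all 16 libraries. No member of 91 was called, and neither was any of 15947 genes (0%). At an unadjusted p below 0.05 there were 3 members on each side, against 6.92% of all genes higher in MRL, and DESeq2 called 0 of 87 members and 0.884% of all genes. The median was 0.23 toward MRL, beside -0.03 over all genes, with 59 above 0 (all genes 48.3%). Without BI-181 the median was 0.64 with 81 above 0 (all genes 49.5%), and 33 members were higher and 1 lower at an unadjusted p below 0.05, where 6.1% of all genes were higher, but again no gene was called (0%). The smallest p was that of Ndufb6 (1.17 ± 0.33, edgeR adjusted p = 0.451). The 7 mitochondrial genes had a median of 0.14 without BI-181 and of -0.58 with all libraries, where 0 of them lay above 0. With BI-181 and both libraries labelled uninjured replicate 4 left out, the median was 0.48 for the members and 0.020 for the mitochondrial genes. In that fit 10 members were higher and 1 lower at an unadjusted p below 0.05 (5.06% of all genes were higher). Without BI-275 alone the median of the members was -0.02, so a difference between the strains in the response of these genes was not shown. By transcript length, with all libraries, 50 members under 1000 nt had a median of 0.37 where 608 other genes had 0.47 (74.2% above 0), and 40 longer members had -0.10 where 12674 others had -0.05. Without BI-181 the medians were 0.68 and 0.54 below 1000 nt and 0.44 and -0.03 above it.

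Before injury, no member of 88 tested differed between strains with the libraries as labelled, and neither did any of 14055 genes (0%). At an unadjusted p below 0.05 there were 2 members higher in MRL (3.87% of all genes) and 3 lower, and DESeq2 called Cox4i2 alone of the members and 0.735% of all genes. Leaving out both libraries labelled uninjured replicate 4, 2 members were called, in a comparison that called 5.5% of all genes (785 of 14274), and both were the isoforms described next. The median of the members was -0.12 with all libraries and 0.06 without these, beside -0.03 over all genes with all libraries.

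Cox4i2, the isoform of complex IV subunit 4 found in lung, smooth muscle and pericytes, and Ndufa4l2, a hypoxia-induced relative of the complex IV subunit Ndufa4, had higher mean levels in MRL, although edgeR called neither with the libraries as labelled. Cox4i2 (chr2:152754173-152765037) had 75.3, 68.0, 74.6 and 43.8 CPM in uninjured C57, 23.4 (BI-181), 51.0, 22.5 and 73.6 CPM in injured C57, 169, 162, 125 and 104 CPM in uninjured MRL, and 51.6, 133, 153 and 159 CPM in injured MRL tendons. Ndufa4l2 (chr10:127514967-127517154) had 232, 257, 231 and 385 CPM in uninjured C57, 94.1 (BI-181), 216, 65.4 and 204 CPM in injured C57, 617, 509, 485 and 323 CPM in uninjured MRL, and 349, 599, 484 and 218 CPM in injured MRL tendons. By their labels, the uninjured C57 and MRL libraries did not overlap for Cox4i2 (3.07% of all genes lay apart and higher in MRL), while for Ndufa4l2 they overlapped in the libraries labelled replicate 4. The Cox4i2 levels nearest the other strain depend on how these doubted libraries are read, since the one labelled C57, with counts of the MRL type, had 43.8 CPM and the one labelled MRL, with counts of the C57 type, had 104 CPM, so that read by those counts the strains would overlap. For Ndufa4l2 the same reading gives the opposite. The 385 CPM would then belong to MRL and the 323 CPM to C57, and the strains would not overlap. In replicates 1 to 3 alone, both genes lay apart (13.1% of all genes).

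Without these libraries the difference between uninjured MRL and C57 was 1.06 ± 0.14 for Cox4i2 (edgeR adjusted p = 0.00212) and 1.15 ± 0.12 for Ndufa4l2 (edgeR adjusted p = 0.000351). With all 8 uninjured libraries DESeq2 gave 1.08 for Cox4i2 (DESeq2 adjusted p = 0.00582). In injured tendons edgeR gave 1.52 ± 0.45 for Cox4i2 (edgeR adjusted p = 0.0946) and 1.49 ± 0.43 for Ndufa4l2 (edgeR adjusted p = 0.0865), whereas DESeq2 called both (DESeq2 adjusted p = 0.00897 and 0.00537). Between injured and uninjured C57 tendons, Ndufa4l2 differed by -0.98 ± 0.39 (edgeR adjusted p = 0.285) and Cox4i2 by -0.67 ± 0.39 (edgeR adjusted p = 0.454). Without BI-181 the values were -0.79 ± 0.42 (edgeR adjusted p = 0.502) and -0.43 ± 0.39 (edgeR adjusted p = 0.714), and with C57 uninjured replicate 4 also left out both were -0.57, so that neither passed the test.

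**Figure D4:**
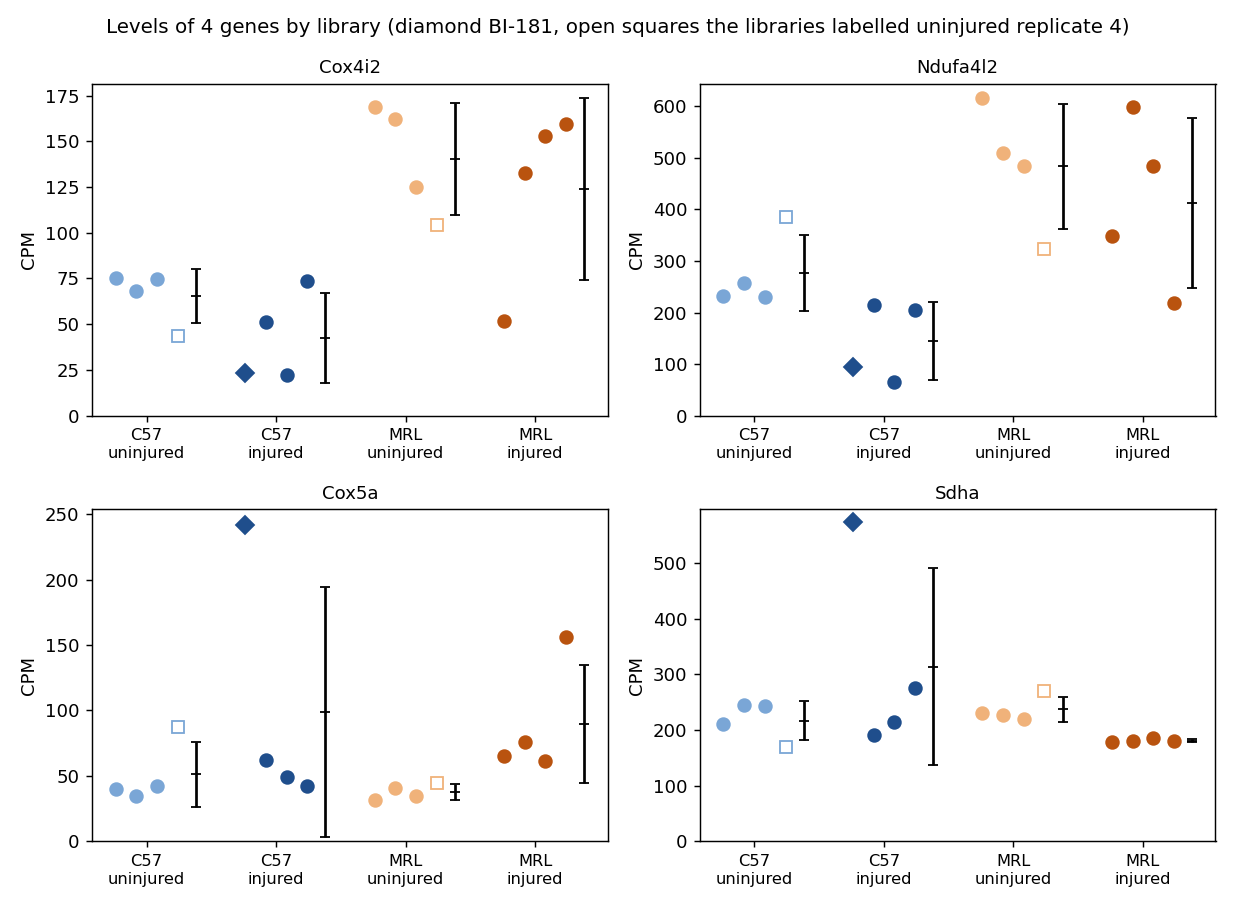
Levels in CPM of Cox4i2, Ndufa4l2, Cox5a and Sdha in each library by strain and injury, with BI-181 as a diamond, the libraries labelled uninjured replicate 4 as open squares and black bars at the mean ± SD of 4 libraries. Cox4i2 lies at 68.0 to 75.3 CPM in C57 and at 125 to 169 CPM in MRL uninjured replicates 1 to 3, with the open squares, whose strain labels are in doubt, at 43.8 and 104 CPM, and Sdha at 179 to 185 CPM in all injured MRL tendons.

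Among injured tendons, none of 90 members was called between MRL and C57, in a comparison that called 3.87% of all genes (566 of 14626). At an unadjusted p below 0.05 there were 6 higher (9.99% of all genes) and 5 lower, and DESeq2 called 3 members, Cox4i2, Ndufa4l2 and the assembly factor Ndufaf8, all higher in MRL, and 11% of all genes. The median was 0.10 with 50 above 0 (all genes 45.6%). Without BI-181 it was 0.52 with 82 above 0 (all genes 47.3%), 40 members were higher (all genes 9.37%) and 3 lower at an unadjusted p below 0.05, and in 34 all MRL libraries lay above all C57 ones (10.5% of all genes), but still none was called (background 2.58%). Over the same change of libraries the 7 mitochondrial genes went from a median of -0.69 to -0.013. Without MRL injured replicate 1, Cox4i2 was the only member called, so the share of members called lay below that of all genes in that comparison. Endothelial markers took 0.00983% to 0.0168% of counts in injured C57 and 8.42e-06% to 0.00235% in injured MRL libraries, which did not overlap, and 2 of 6 were called lower in MRL. Macrophage markers took 0.868% to 1.02% of counts in injured C57 libraries other than BI-181 and 0.364% to 0.734% in injured MRL libraries, also apart. Under 1000 nt, without BI-181, 49 members had a median of 0.62 and 595 other genes 0.43 (74.5% above 0), and at 1000 nt and above 40 members had 0.30 and 12284 others -0.06. The part of these cells and of length in the values of Cox4i2 and the other members was not tested.

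The muscle isoforms of complex IV followed BI-181. Cox6a2 had 10045 counts (623 CPM) in BI-181 and 363 counts (22.4 CPM) in BI-183, and at most 0.853 CPM elsewhere. Cox8b had 270 CPM in BI-181, 8.21 CPM in BI-183 and at most 0.863 CPM elsewhere, and Cox7a1 had 177, 6.61 and between 0.973 and 3.07 CPM. The same 2 libraries held the muscle markers given above, in the same order. The fitted log2 fold changes of Cox6a2 (9.69 ± 2.79, edgeR adjusted p = 0.166) and Cox7a1 (4.82 ± 1.55, edgeR adjusted p = 0.204) in C57 injury therefore rest on these libraries, and that of Cox6a2 depends on the prior count because 3 of 4 uninjured libraries had 0.

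Their widely expressed partners differed in this respect. Cox6a1 was at 184 CPM in BI-181, below the range of 237 to 345 CPM in uninjured C57 tendons, and Cox8a was at 123 CPM, just below the range of 124 to 209 CPM. In contrast, Cox7a2 was also high in BI-181, at 303 CPM, where uninjured C57 tendons had between 160 and 250 CPM and the other injured C57 tendons 156 ± 24.7 CPM (SD, n = 3). Genes without a muscle isoform were also high in BI-181, with Atp5b at 2805 CPM and Atp5a1 at 1716 CPM.

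**Figure D5:**
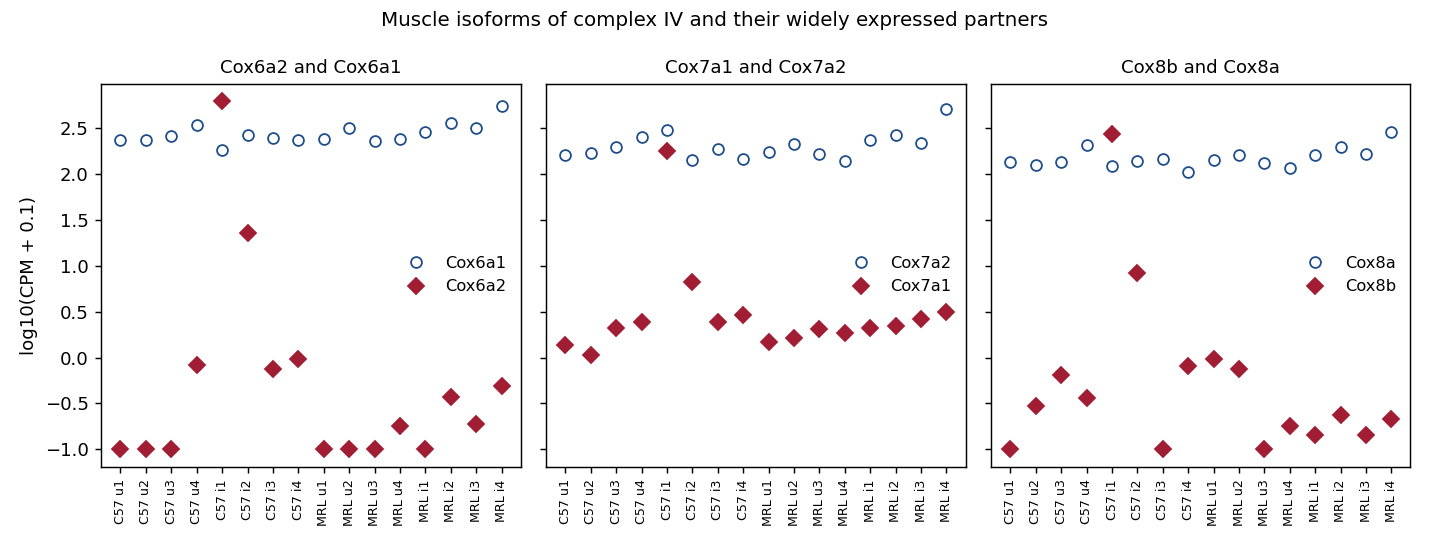
Levels of the muscle isoforms Cox6a2, Cox7a1 and Cox8b (filled diamonds) and of their widely expressed partners Cox6a1, Cox7a2 and Cox8a (open circles) in each library, as log10 of CPM plus an offset of 0.1, not divided by gene length, with uninjured (u) and injured (i) replicates along the horizontal axis. The filled diamonds peak in C57 i1 (BI-181) at 623, 177 and 270 CPM and are next highest in C57 i2 (BI-183).

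Promoters of the members were searched for letters known from respiratory genes, and that of Cox6a1 is shown as an example. RefSeq entries (GRCm38.p6) were matched by symbol for 73 members, and the 250 bases before the start were searched on both strands. Sequence just after the start was found in a GENCODE transcript of the gene for 64 of these. The core of the site of nuclear respiratory factor 1 (NRF1), read as GCGC on either side of an A and any next base, occurred in 17.8% of member promoters and in 3.86% of 27025 promoters of all genes. CCGGAAG, an ETS-family core that GA-binding protein also recognizes, occurred in 17.8% and 7.05%. In all, 23 member promoters held at least 1 of them and 3 held both (Cox6a1, Sdhd and Atp5h). Of these, Sdhd and Atp5h had a start that was not found in a GENCODE transcript. The ERRa letters TCAAGGTCA were found in 1.37% and 0.366%, the E-box CAGCTG in 8.22% and 12.8%, AAGATGGCG (YY1) in 0% and 0.607%, and TATTTATA (MEF2) in 0% and 1.63%. The 120 bases before the start of Cox6a1 (chr5:115348959-115349078, minus strand), which holds both sets of letters, follow 5′ to 3′ with these letters in capitals, the ETS letters being on the opposite strand. The start is that of RefSeq, whereas the GENCODE gene ends at 115348981, so the last printed bases, ETS letters included, lie inside the GENCODE gene.
Cox6a1: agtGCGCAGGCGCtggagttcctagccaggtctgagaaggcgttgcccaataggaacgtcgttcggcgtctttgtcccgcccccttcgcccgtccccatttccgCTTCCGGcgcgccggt
Neither set was found before the muscle isoforms Cox7a1 and Cox8b or before their partners Cox7a2 and Cox8a. The muscle isoform Cox6a2 was not among the matched entries.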

How the data were processed

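Gene-level read counts of 16 libraries, as deposited by the authors, were used. Per the labels, single-end reads of 100 nt were made. The submitters' processing notes name Trimmomatic 0.36, STAR 2.5.2b, Subread 1.5.0p3 with featureCounts, DESeq2 1.14.1 and the build GRCm38.p5, and the strand setting is not given in the sources used here. The labels name a TruSeq kit and the study's methods a low-input preamplification with Nextera XT, so the library method is uncertain. Groups were taken from the strain and time-point labels. The study's methods give 4 animals per group, so p-values measure the spread between animals.

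Comparisons were fitted in R 4.3.3 with edgeR 4.0.16 (expression filter, trimmed-mean scaling, robust quasi-likelihood test) on the libraries of the 2 groups compared, and for the interaction on all 16. Genes were called at a Benjamini-Hochberg adjusted p below 0.05 over all genes. Log2 CPM used a prior count of 2, and a library at 0 allows up to 3 counts, for counting error only. DESeq2 1.42.0, other scaling factors, other filters and leaving out libraries were tried. Named genes were taken from the members of highest CPM in each complex, all called members, the 3 highest and 3 lowest in fold change per comparison, the isoforms with their partners, called genes of the other lists and biogenesis regulators, and genes with groups apart were named after their values were seen. The members and gene lists were chosen with earlier results of these data known. Scripts were tested on simulated data. Replicate numbers follow the labels in uninjured and accession order in injured groups, and did not pair libraries. Gene positions and lengths came from GENCODE (GRCm38).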

Additional observations from a re-analysis of the deposited data

Results flagged for a closer look

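Over 25 measures in 4 groups (100 group tests), 13 had 1 library whose distance to its nearest neighbor, as a share of the range of the 4 libraries, exceeded Dixon's 95% critical value. For a single measure, chance alone gives this in about 1 in 20 groups. Many measures describe related genes in the same libraries, so the 13 are not independent and cannot be set against that rate. BI-181 (C57 injured replicate 1) was the highest library in 7 of these, with a ratio of 0.881 for the mean log2 CPM of the mitochondrial genes, 0.853 for complex I accessory subunits, 0.878 for complex I assembly factors, 0.910 for complex I core, 0.843 for complex II, 0.861 for complex III and 0.899 for Ndufb6. BI-275 (MRL injured replicate 4) was highest for complex I assembly factors (0.919) and complex II (0.893). The library labelled C57 uninjured replicate 4 was highest for Ndufs8 (0.971, log2 CPM 6.95 against 6.00 for the nearest). This library and the one labelled MRL uninjured replicate 4 were highest for Cox6a2 (ratio 1 in both). There the other 3 libraries of each group had 0 counts, so any count above 0 gives a ratio of 1. The Cox6a2 flags thus say nothing about how far apart the libraries lay. MRL injured replicate 1 was lowest for Cox4i2 (0.838, log2 CPM 5.69 against 7.05 for the nearest).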

How the results depend on the processing

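The number of members called in MRL injury was 9 (11.1% of all genes called). It was 17 when at least 10 counts were required in every library (14.1%), 16 with no filter (5.35%) and 29 with DESeq2 (19.3%). It ranged from 0 to 17 when 1 library was left out (5.4% to 11.8%). With other scaling factors it was 7 or 8 (10.8% to 11%). In injured strains it was 0 (3.87%), 3 with DESeq2 (11%), and 0 to 1 when 1 library was left out (1.52% to 3.3%). In uninjured strains it was 0 (0%), 1 with DESeq2 (0.735%) and 2 without both libraries labelled uninjured replicate 4 (5.5%), where the median log2 fold change of the members was 0.064. In C57 injury it was 1 with BI-181 and C57 uninjured replicate 4 left out (8.55%). The interaction median ranged from -0.019 to 0.64 when 1 library was left out. The cause of these shifts was not tested, and combinations that leave out the libraries labelled uninjured replicate 4 in both strains were chosen after seeing the data. No called value changed sign under any alternative. Replicate numbers did not pair the uninjured libraries, since the correlations of deviations between same-numbered C57 and MRL libraries were -0.19, -0.03, -0.10 and -0.24, and with the replicate block 0 members were called (median -0.12). Depth limits the muscle isoforms and Cox6b2, which had few counts in most libraries. Nothing can be said of mitochondrial genes whose sequence is almost wholly shared with nuclear copies (97.6% to 99.9% of stretches). The values of mt-Nd4 (60.8% shared) and mt-Co1 (30.8% shared) carry this limit in part.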
